A study of Mus musculus with 5 samples.

Results

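The genes described here are Myc and 9 genes of glucose uptake and glycolysis, Slc2a1, Slc2a3, Hk1, Hk2, Gpi1, Pfkp, Aldoa, Pkm and Ldha, whose RNA polymerase II (Pol II) occupancy was compared between Setd2-deficient and control regulatory T (Treg) cells. They are given by name, and the rule uses no measured value, but they were chosen with earlier results of these data known. Reads of each library were summed over the merged Pol II peaks whose midpoint lay in the mm10 gene body or within 3 kb upstream of it. All 10 genes had such a peak, out of 12927 genes that did, and together they held 89 of the 56615 peaks. None of the 10 passed the test of KO against Ctrl. The 95% interval given for each gene shows the sizes of change, after scaling between libraries, that the fitted spread between libraries leaves room for.

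Pol II was mapped by CUT&Tag, in which an antibody tethers a transposase to chromatin so that reads collect where the protein sits. Nuclei were prepared from sorted splenic Treg cells of 8-week-old C57BL/6 mice of both sexes, pooled, that had received IL-2c (1 μg of IL-2 with 5 μg of an anti-IL-2 antibody, which expands Treg cells) for 3 days and were taken 48 h later. Ctrl mice were Foxp3CreSetd2flox/+ and KO mice Foxp3CreSetd2flox/flox, so both carried Cre, driven by Foxp3 and therefore active in Foxp3-expressing cells, and Ctrl cells could keep 1 intact allele of Setd2, which encodes a histone methyltransferase whose product is the H3K36me3 mark. There were 2 libraries per genotype, each of 80000 nuclei from cells pooled from 2 mice, and a single IgG library that is not analysed here. The study's methods count each library as a biological replicate, while the design text gives 2 mice per genotype. It is therefore not clear whether the libraries of a genotype came from separate mice. The p-values measure a fitted spread between these libraries, which may be technical. The main test, DESeq2, draws on all genes to fit it, so an SE can exceed the spread of a gene's own libraries.

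Library totals were 11331274 and 5624680 reads in peaks for the Ctrl libraries 1 and 2, and 13351007 and 4489646 for the KO libraries 1 and 2, so values of the libraries numbered 2 carry the larger counting error. Counts are given after division by size factors (normalized counts). Size factors were estimated from the same counts, so a change of Pol II shared by most genes would be scaled out. All 6 Treg markers (Foxp3, Il2ra, Ctla4, Ikzf2, Cd4, Cd3e) had peaks, with summed normalized counts of 26662 to 32196 per library. Of 19 markers of B, CD8 T, myeloid, NK and erythroid cells, 5 (Cd79a, Cd79b, Spi1, Cd14, Klf1) had peaks, with summed counts of 781 to 884 in all libraries, and Ms4a1, Cd8a, Lyz2, Csf1r, Ncr1 and Hba-a1 had none. These sums depend on the length of the peaks. Per kb of peak the Ctrl means were 80.4 for Cd79a, 117 for Cd79b, 127 for Spi1, 141 for Klf1 and 189 for Cd14. For the Treg markers they were 128 for Cd4, 143 for Il2ra, 154 for Ikzf2, 155 for Foxp3, 165 for Cd3e and 262 for Ctla4. The Cd14 value rests on 1 peak, with 139 and 240 in the Ctrl libraries. Setd2 itself had normalized counts of 512 and 518 in Ctrl against 455 and 569 in KO, but Pol II over the whole gene does not read out the floxed part and so does not check the genotype.

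Glycolysis turns glucose into pyruvate, and Ldha then reduces pyruvate to lactate. Glucose enters the cell through the transporters Slc2a1 (GLUT1) and Slc2a3 (GLUT3), is trapped by the hexokinases Hk1 and Hk2, and passes through Gpi1, phosphofructokinase (Pfkp is its platelet form) and aldolase (Aldoa) before Pkm, pyruvate kinase, makes pyruvate. Myc is a transcription factor that, with its partner Max, binds the E box CACGTG, and many genes of this pathway are known Myc targets in activated T cells. In Treg cells the pathway is known to rise with proliferation and to be held down by Foxp3.

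Sequence upstream of the starts was read for the genes that the RefSeq promoter table of GRCm38.p6 (the assembly that mm10 names) holds, 8 of the 10, with 13 windows of 250 bases that end at the base before an annotated start. Myc and Slc2a3 were not matched. Of the 13 starts, 10 lay inside a Pol II peak. Hk1 and Aldoa each have an annotated start that no peak covered and another, further into the gene, under the strongest peak of the gene. The windows of these 2 pairs are shown because the starts of each pair differ in CpG content as well as in whether a peak covers them. The uncovered Aldoa start (chr7:126800447) lies just outside that peak, whose edge is at chr7:126800262. The uncovered Hk1 start (chr10:62379908) lies far from its strongest peak, whose edge is at chr10:62341318. Each is written 5′ to 3′ in the direction of transcription, in GRCm38.p6 coordinates, with CG dinucleotides in capitals.
Hk1 at the 5′ end of the gene, chr10:62379909-62380158, strand -: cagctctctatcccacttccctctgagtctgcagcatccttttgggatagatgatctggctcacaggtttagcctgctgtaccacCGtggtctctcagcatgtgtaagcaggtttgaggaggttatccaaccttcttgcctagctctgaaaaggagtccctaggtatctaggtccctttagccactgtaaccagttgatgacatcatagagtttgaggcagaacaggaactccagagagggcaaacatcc
Hk1 at the internal start, chr10:62340422-62340671, strand -: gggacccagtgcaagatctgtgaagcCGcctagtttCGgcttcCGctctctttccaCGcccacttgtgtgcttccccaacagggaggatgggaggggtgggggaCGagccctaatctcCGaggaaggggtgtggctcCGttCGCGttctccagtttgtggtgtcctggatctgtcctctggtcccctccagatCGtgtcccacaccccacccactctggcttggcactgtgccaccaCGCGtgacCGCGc
Aldoa at the upstream start, chr7:126800448-126800697, strand -: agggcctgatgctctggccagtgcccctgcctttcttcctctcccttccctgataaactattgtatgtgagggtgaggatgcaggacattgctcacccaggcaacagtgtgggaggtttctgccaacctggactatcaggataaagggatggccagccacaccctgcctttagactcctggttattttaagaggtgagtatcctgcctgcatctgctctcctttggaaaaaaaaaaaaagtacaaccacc
Aldoa at the internal start, chr7:126799255-126799504, strand -: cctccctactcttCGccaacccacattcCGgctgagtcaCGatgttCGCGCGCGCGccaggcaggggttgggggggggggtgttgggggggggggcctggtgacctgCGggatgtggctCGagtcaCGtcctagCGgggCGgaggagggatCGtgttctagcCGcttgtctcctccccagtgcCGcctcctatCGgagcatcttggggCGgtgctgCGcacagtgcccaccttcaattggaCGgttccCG

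The Hk1 window at the 5′ end of the gene held 1 CpG and the internal one 14, or 0.0652 and 0.570 of the number that their C and G content would give. The Aldoa windows held 0 and 21 CpG, with ratios of 0.00 and 0.743. Among all 32851 windows of the table, the median ratio was 0.758 for the 9521 windows whose start lay in a peak and 0.258 for the 23330 whose start did not. In Pkm the start outside a peak (chr9:59656977-59657226, window not shown) had 18 CpG and a ratio of 1.13, the highest of the 13 windows. Its start in a peak had 0.763. The uncovered Pkm start lies in the narrow gap between the promoter peaks chr9:59655899-59656974 and chr9:59657261-59657581, so it is not a start without Pol II nearby.

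The motif CACGTG, and the shorter ACGTG found in hypoxia response elements, were searched on both strands. CACGTG reads the same on both strands and contains ACGTG once on each, so the second search counts every E box again. Only Ldha had CACGTG, in 1 of the 13 windows, against 6.02% of all windows and 8.99% of those whose start lay in a peak. ACGTG was in 6 windows of 5 genes (Slc2a1, Hk2, Aldoa, Pkm, Ldha), against 16.6% of all windows and 23.9% of those with a start in a peak. The 2 Aldoa windows among them overlap and hold the same site. The windows of Ldha, with CACGTG at 2 places and 5 counts of ACGTG over both strands, of Hk2, with 2, and of Slc2a1, with 1, are shown as examples that hold the motifs. Capitals mark ACGTG and its reverse complement CACGT.
Ldha, chr7:46845554-46845803, strand +: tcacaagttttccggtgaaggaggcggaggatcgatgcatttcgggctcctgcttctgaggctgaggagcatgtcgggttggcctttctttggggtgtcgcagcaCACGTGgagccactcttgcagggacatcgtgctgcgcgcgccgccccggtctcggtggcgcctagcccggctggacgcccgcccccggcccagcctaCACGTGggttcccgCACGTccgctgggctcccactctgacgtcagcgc
Hk2, chr6:82774455-82774704, strand -: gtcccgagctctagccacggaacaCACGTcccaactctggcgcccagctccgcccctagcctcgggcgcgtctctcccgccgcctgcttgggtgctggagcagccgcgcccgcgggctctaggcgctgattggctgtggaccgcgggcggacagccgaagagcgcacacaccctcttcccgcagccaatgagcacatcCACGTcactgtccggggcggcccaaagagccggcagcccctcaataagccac
Slc2a1, chr4:119108495-119108744, strand +: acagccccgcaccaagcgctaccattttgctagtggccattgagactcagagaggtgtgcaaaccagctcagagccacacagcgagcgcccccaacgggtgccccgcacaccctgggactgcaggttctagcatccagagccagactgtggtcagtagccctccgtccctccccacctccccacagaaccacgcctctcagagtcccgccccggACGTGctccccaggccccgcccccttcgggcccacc

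A match is a description of the letters and not a binding site, and windows without a match can hold other sites.

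The first question was whether Pol II over each gene as a whole differed between KO and Ctrl. None of the 10 genes passed an adjusted p of 0.05 in the DESeq2 test, against 0.101% of the 12927 genes, and none had an unadjusted p under 0.05, against 2.89% of all genes. By the edgeR quasi-likelihood test both counts were likewise 0, against 0.00% and 4.88% of all genes. The lowest p of the 10 was 0.0840, for Gpi1, and all 10 adjusted p-values (DESeq2, Benjamini-Hochberg) were 1.00. Log2 fold changes of KO over Ctrl were positive for 5 genes and negative for 5, from -0.22 for Myc to 0.38 for Gpi1, with a median of 0.01 beside -0.00 over all genes. In 7 of the 10 genes both KO libraries lay on 1 side of both Ctrl libraries, above in 4 and below in 3, where 34.3% of all genes did so (17.5% above and 16.9% below). These separations were small: 6 of the 7 fold changes lay between -0.22 and 0.15 on the log2 scale.

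**Figure D1:**
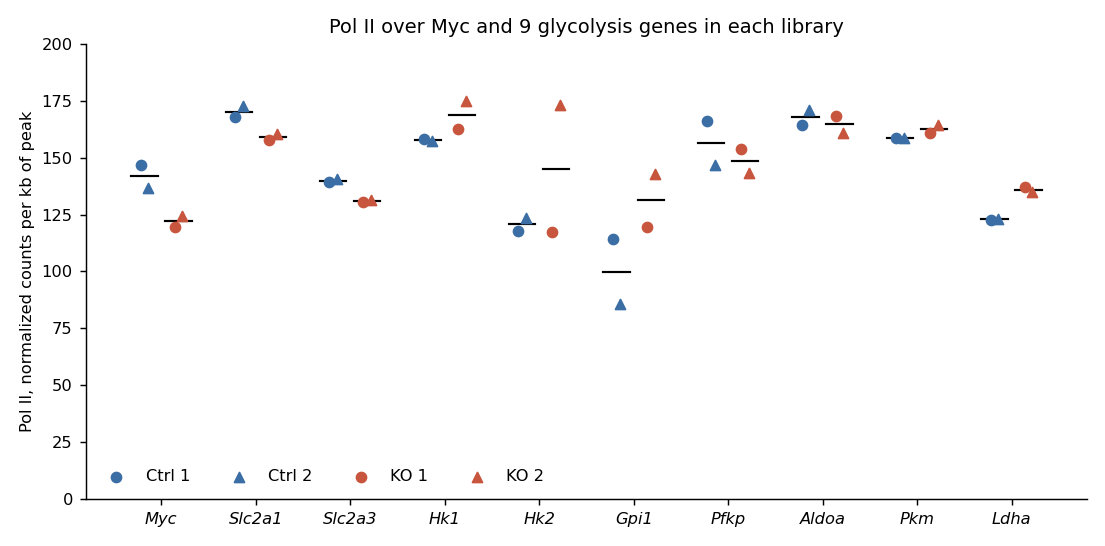
Pol II over each gene, in normalized counts per kb of peak (vertical axis, from 0), in the 2 Ctrl libraries (blue) and the 2 KO libraries (red), with circles for replicate 1, triangles for replicate 2 and black lines for group means. The points of most genes lie close together. The group means lie furthest apart for Gpi1, whose 2 Ctrl libraries also differ (114 and 85.5), and the 2 KO libraries lie furthest apart for Hk2.

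Per kb of peak, the Ctrl means ran from 170 ± 3.24 normalized counts (SD, n = 2) for Slc2a1 to 99.9 ± 20.4 for Gpi1. Aldoa followed Slc2a1 at 168, then came Pkm at 159, Hk1 at 158, Pfkp at 157, Myc at 142, Slc2a3 at 140, Ldha at 123 and Hk2 at 121. The ranges of the 2 Ctrl libraries overlapped between neighbours in this order except for Aldoa and Pkm, Pkm and Hk1, Slc2a3 and Ldha, and Hk2 and Gpi1. No gene of the 10 stood at an extreme of the series, since their levels per kb lay between the 26.4 and the 64.6 percentile of all genes with a peak.

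Myc, the regulator in the list (chr15:61985391-61990374, + strand, ENSMUSG00000022346), had 2 peaks. One covered all 6 annotated coding starts (chr15:61984247-61988241) and the other lay upstream. Normalized counts over both were 683 and 636 in Ctrl against 557 and 578 in KO. Both KO libraries were lower than both Ctrl libraries, and the log2 fold change was -0.22 ± 0.17 (SE; 95% interval -0.55 to 0.11, unadjusted p = 0.185, adjusted p = 1.00, DESeq2). On the linear scale the interval runs from 0.684 to 1.08 times the Ctrl level. The peak at the starts held 89.7% of the reads and carried the same value, with 604 and 580 in Ctrl against 486 and 535 in KO (-0.22 ± 0.20). In bulk nuclei, less Pol II per cell cannot be told apart from fewer cells that transcribe the gene.

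The genes whose 4 normalized counts followed Myc most closely, by the root mean square difference of log2 values after centring, were the spectrin gene Sptan1 (0.0022), the mitochondrial ribosomal protein gene Mrpl18 (0.0062), Ccsap (0.014), the tyrosine kinase gene Abl1 (0.015) and Gm20716 (0.015), out of 10423 genes compared. With 4 libraries such likeness is common, and 1365 genes lay within 0.1 of Myc. None of the 9 glycolysis genes was among the 5, but with so few places this does not show whether they follow Myc.

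Of the glucose transporters, Slc2a1 (chr4:119108711-119137983, + strand) carried the most Pol II of the list, over 17 peaks that span the gene. Its normalized counts were 3658 and 3757 in Ctrl against 3440 and 3493 in KO. Both KO libraries were lower, by -0.10 ± 0.12 on the log2 scale (95% interval -0.33 to 0.13). The lower end of this interval is 0.797 times the Ctrl level. Most of the reads lay away from the start: peaks within 3 kb of an annotated start (promoter peaks) held 14.6 ± 0.951% of them in Ctrl and 16.8 ± 0.136% in KO (SD, n = 2 each). The strongest peak, inside the gene at chr4:119124870-119128355 and in intron at its midpoint, had 1073 and 1024 normalized counts in Ctrl against 965 and 966 in KO (-0.12 ± 0.18). The promoter peak at the start (chr4:119108490-119109791), which overlaps the Slc2a1 window shown above, had 342 and 291 in Ctrl against 376 and 322 in KO (0.14 ± 0.24). The fold change was negative in 12 of the 17 peaks, none with an unadjusted p under 0.05.

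Slc2a3 (chr6:122727809-122801640, - strand) had 4 peaks and far fewer reads than Slc2a1, with normalized counts of 386 and 390 in Ctrl against 362 and 365 in KO. The KO libraries were again both lower, and the change of -0.09 ± 0.19 (95% interval -0.47 to 0.29) was within its error. The peak at the 5′ end of the gene (chr6:122801281-122802550) had 181 and 141 in Ctrl against 163 and 162 in KO (0.00 ± 0.29), so the groups overlapped there. Of the 4 annotated coding starts, 1 lay in a peak, and this peak covered it. The other starts (chr6:122742262 to chr6:122742920) lie far inside the gene. Beside them, the peak chr6:122742292-122742569 was the densest of the 4, at 251 normalized counts per kb in Ctrl against 127 at the 5′ end. Its counts were 73.3 and 66.1 in Ctrl against 63.0 and 73.2 in KO. The single gene body peak (chr6:122764432-122764967), between the 5′ end and those inner starts, had 52.5 and 82.7 in Ctrl against 55.8 and 76.6 in KO (-0.03 ± 0.43).

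Hk1, the hexokinase used by most tissues (chr10:62268855-62379908, - strand), had 11 peaks, none of which covered the annotated 5′ end. Of its 10 coding starts, 2 lay in a peak. The strongest peak, chr10:62338291-62341318, covers the internal start whose CpG-rich window is shown above and held 54.4% of the reads of the gene. It had 911 and 956 normalized counts in Ctrl against 927 and 1049 in KO (0.08 ± 0.19). Over the whole gene the counts were 1713 and 1698 in Ctrl against 1758 and 1890 in KO. Both KO libraries were higher, by 0.09 ± 0.13 (95% interval -0.16 to 0.35). The strongest gene body peak (chr10:62277568-62278892) had 134 and 114 in Ctrl against 158 and 109 in KO (0.12 ± 0.33).

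Hk2, the inducible hexokinase (chr6:82725025-82774454, - strand), was the weakest gene of the list in reads and had 5 peaks. Counts were 198 and 207 in Ctrl, 197 in KO 1 and 291 in KO 2. KO 1 lay below both Ctrl libraries and KO 2 above them, so the fold change of 0.25 ± 0.26 (95% interval -0.27 to 0.76) rests on KO 2, and without that library it was -0.04. The promoter peak (chr6:82774296-82774874), inside which the window shown above lies, had 104 and 95.1 in Ctrl against 77.8 and 116 in KO (-0.07 ± 0.36). The strongest gene body peak (chr6:82744320-82744651) had 64.7 and 45.5 in Ctrl against 70.1 and 83.5 in KO (0.45 ± 0.42).

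Gpi1, which interconverts glucose-6-phosphate and fructose-6-phosphate (chr7:34201330-34230336, - strand), had the largest fold change and the lowest p of the list. Counts were 368 and 276 in Ctrl against 386 and 460 in KO. Both KO libraries were higher, by 0.38 ± 0.22 (95% interval -0.05 to 0.80, unadjusted p = 0.0840, adjusted p = 1.00, DESeq2), but the gap between Ctrl 1 and KO 1 was smaller than that between the 2 Ctrl libraries. Without Ctrl 1 the fold change was 0.61, with an unadjusted p of 0.0465, and without Ctrl 2 it was 0.19. Of its 5 peaks, the one in the intron at chr7:34226267-34227492, within 3 kb of an annotated start, had 94.9 and 89.6 in Ctrl against 131 and 164 in KO (0.66 ± 0.33, unadjusted p = 0.0420, adjusted p = 1.00, DESeq2). Leaving out any 1 of the 4 libraries took this unadjusted p over 0.05. The peak over the 5′ end of the gene (chr7:34229342-34230469), its strongest, had 185 and 125 in Ctrl against 182 and 164 in KO (0.14 ± 0.31), and the groups overlapped there. The strongest gene body peak (chr7:34208707-34208975) had 43.1 and 22.0 in Ctrl against 28.5 and 57.9 in KO (0.34 ± 0.58).

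Pfkp, a subunit of phosphofructokinase, the committed step of the pathway (chr13:6579768-6648777, - strand), had 20 peaks, the most of the list. Counts were 3184 and 2812 in Ctrl against 2948 and 2740 in KO. The groups overlapped, and the fold change was -0.08 ± 0.13 (95% interval -0.33 to 0.18). The strongest peak lay in an intron (chr13:6630841-6634466), with 672 and 491 in Ctrl against 556 and 491 in KO (-0.15 ± 0.23). The strongest promoter peak (chr13:6646870-6648049) had 383 and 378 in Ctrl against 337 and 296 in KO (-0.26 ± 0.23), and there both KO libraries were lower.

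Aldoa, the aldolase of muscle and most other tissues, is in the annotation as 2 entries under the same symbol (chr7:126795234-126800751 and chr7:126800790-126809108, - strand), which were combined. All 5 of its peaks also fell in the span of Fam57b, and since CUT&Tag reads carry no strand they cannot be credited to either gene. Counts were 811 and 844 in Ctrl against 831 and 794 in KO. The groups overlapped, and the fold change was -0.02 ± 0.15 (95% interval -0.32 to 0.28), the smallest of the list. The strongest peak (chr7:126798121-126800262) lies over the internal start shown above and had 505 and 489 in Ctrl against 443 and 433 in KO (-0.18 ± 0.21). The only gene body peak (chr7:126803484-126804062) had 43.1 and 57.9 in Ctrl against 59.4 and 46.0 in KO (0.09 ± 0.46). It lies inside the second entry alone and upstream of the first. The Aldoa gene body values given below therefore rest on signal upstream of the first entry.

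**Figure D2:**
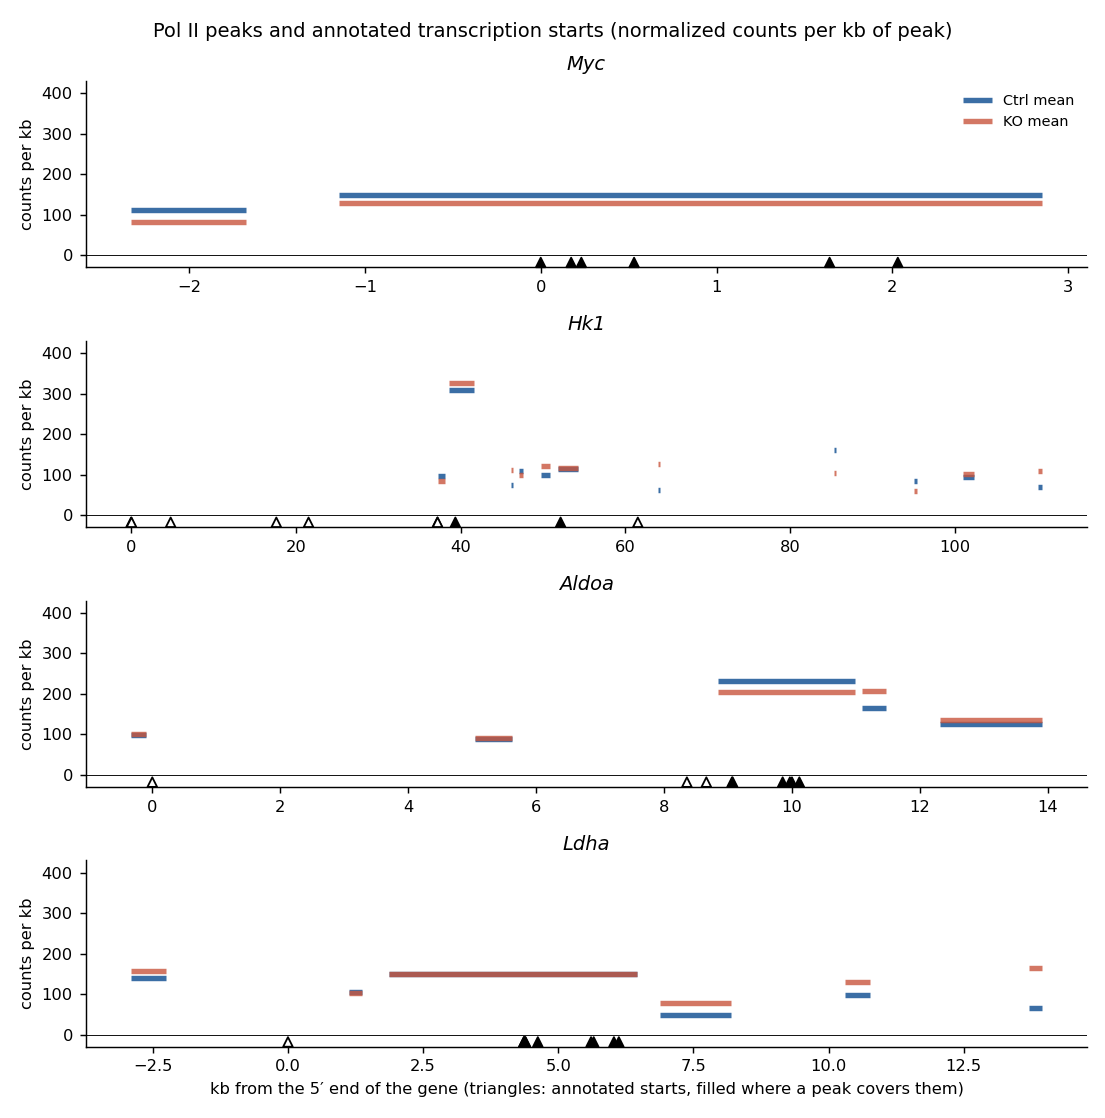
Peaks of Myc, Hk1, Aldoa and Ldha as horizontal bars drawn to their length at their distance in kb from the 5′ end of the gene, at the height of the mean normalized count per kb of peak in Ctrl (blue) and KO (red); triangles below are annotated coding starts, filled where a peak covers them. Hk1 has no peak at the starts near its 5′ end and its highest peak at an internal start, at 308 counts per kb in Ctrl and 326 in KO.

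Pkm, pyruvate kinase (chr9:59656368-59679375, + strand), had 14 peaks, the last of which it shared with Gramd2. Counts were 1835 and 1834 in Ctrl against 1862 and 1902 in KO. The KO libraries were both higher by a small margin, and the fold change of 0.04 ± 0.13 (95% interval -0.21 to 0.29) was within its error. With unshared peaks alone the fold change was -0.011. The strongest peak, at the start (chr9:59655899-59656974), had 587 and 541 in Ctrl against 582 and 511 in KO (-0.04 ± 0.21). The strongest gene body peak (chr9:59660602-59662648) had 267 and 203 in Ctrl against 204 and 235 in KO (-0.11 ± 0.27).

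Ldha, lactate dehydrogenase A (chr7:46841475-46855627, + strand), had 6 peaks. Counts were 922 and 923 in Ctrl against 1030 and 1012 in KO. Both KO libraries were higher, by 0.15 ± 0.15 (95% interval -0.14 to 0.43, the upper end being 1.35 times the Ctrl level). Its main peak (chr7:46843341-46847934) covered 11 of its 12 annotated coding starts, as well as the RefSeq start whose window with both E boxes is shown above, and held 70.6% of the reads. There the groups overlapped, with 709 and 663 in Ctrl against 711 and 664 in KO (0.00 ± 0.20). The small peak in the 3′ UTR (chr7:46855175-46855422), had 23.0 and 9.64 in Ctrl against 38.6 and 42.6 in KO (1.26 ± 0.63, unadjusted p = 0.0467, adjusted p = 1.00, DESeq2). That value was 2.08 without Ctrl 1 and 0.81 without Ctrl 2, and leaving out any library other than Ctrl 1 took its unadjusted p (DESeq2) over 0.05. The strongest gene body peak (chr7:46851771-46852239) had 29.5 and 63.4 in Ctrl against 49.3 and 73.2 in KO (0.41 ± 0.50). The fold changes of all 6 Ldha peaks were above 0, from 0.00 to 1.26.

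**Figure D3:**
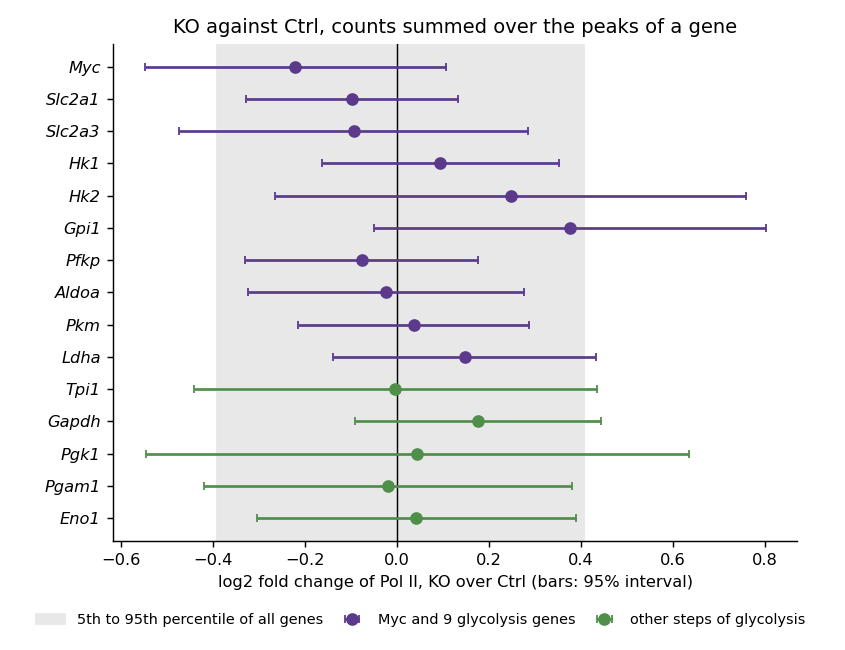
Log2 fold change of Pol II, KO over Ctrl, for the 10 genes (purple) and for the enzymes of the 5 other steps of glycolysis (green), with bars for the 95% interval; the grey band runs from the 5 to the 95 percentile of all 12927 genes (-0.39 to 0.41). All intervals include 0, and all estimates lie inside the band.

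The second question was whether any single peak differed. Of the 89 peaks, 37 were promoter peaks and 52 lay elsewhere in the gene body. By midpoint 69 lay in introns, 7 upstream, 4 in coding exons, 5 in 5′ UTRs and 4 in 3′ UTRs. Peak length ran from 232 to 4594 bp (median 691 bp). None passed an adjusted p of 0.05, as was the case for 0.00% of the 56615 peaks (DESeq2), while edgeR called 0.0477% of all peaks and none of the 89. At an unadjusted p under 0.05 there were 2 of the 89, the Gpi1 intron peak and the Ldha 3′ UTR peak, or 2.25% against 1.53% of all peaks. By edgeR there were 4, the same 2 with another Ldha peak and the Pkm 3′ UTR peak shared with Gramd2, against 3.63% of all peaks. Fold changes were positive in 48 and negative in 41, from -1.02 to 1.29 on the log2 scale, with a median of 0.01 beside -0.01 for all peaks. Both KO libraries lay above both Ctrl libraries in 14 and below in 14, or in 28 of 89 together, against 32.3% of all peaks.

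**Figure D4:**
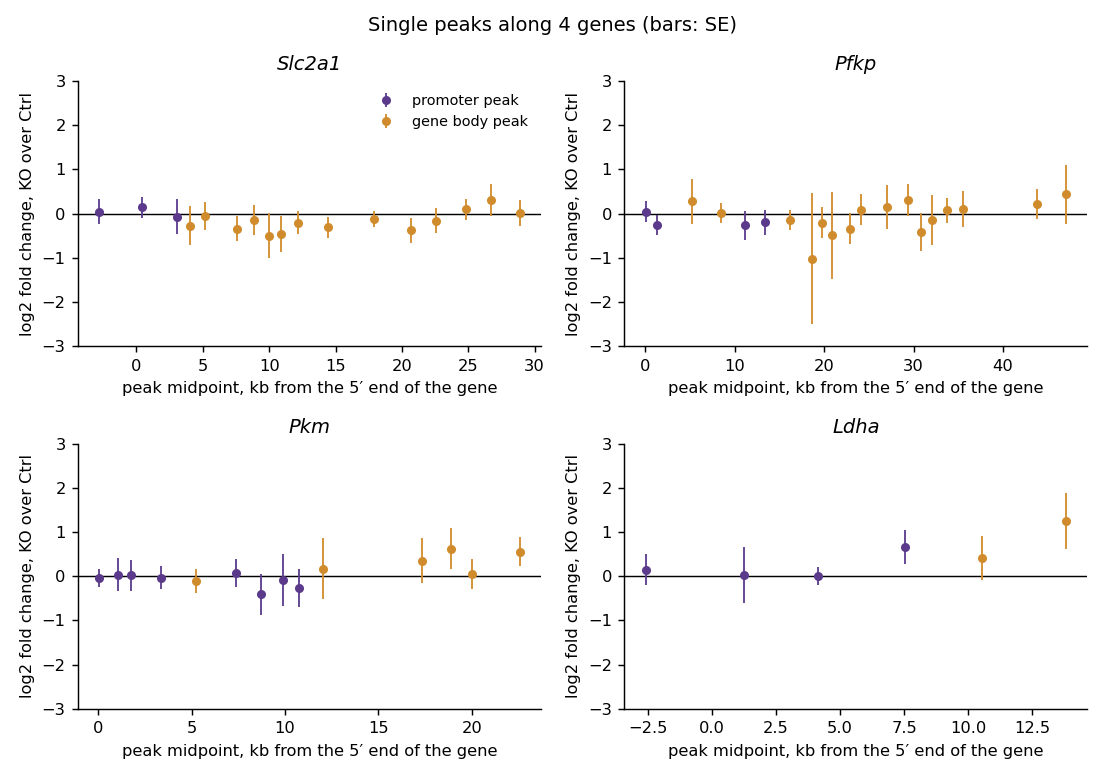
Log2 fold change of each peak, KO over Ctrl, with its SE, against the distance of the peak midpoint from the 5′ end of the gene in kb, for Slc2a1, Pfkp, Pkm and Ldha; promoter peaks are purple and gene body peaks orange. The points lie on both sides of 0 along Slc2a1, Pfkp and Pkm, and those of Ldha lie at or above 0, with the 3′ UTR peak at 1.26.

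The third question was whether Pol II shifted between the promoter and the gene body, for which the sums over both kinds of peak were compared in 1 model. It could be tested in 9 of the 10 genes, since Myc had no gene body peak. None passed an adjusted p of 0.05, against 0.0176% of 5689 genes, and none had an unadjusted p under 0.05, against 1.23%. By edgeR 0 of the 9 passed either threshold, against 0.00% and 2.43% of all genes. The lowest p was for Ldha, whose gene body change exceeded its promoter change by 0.62 ± 0.36 on the log2 scale (unadjusted p = 0.0880, adjusted p = 1.00, DESeq2). With promoter peaks taken from the 5′ end of the gene alone, in place of all annotated starts, this difference was 0.0082. That setting counts the main Ldha peak, which covers 11 of its 12 annotated coding starts, as gene body. It therefore compares other regions and does not check the main value. By all annotated starts, the difference was 0.33 without Ctrl 1 and 0.39 without KO 2. Promoter peaks held 94.4% and 92.0% of the Ldha reads in Ctrl and 91.5% and 88.4% in KO. In Slc2a1 the difference had the other sign, -0.24 ± 0.21, where promoter peaks held 15.3% and 13.9% of the reads in Ctrl and 16.9% and 16.7% in KO. In Hk2 the promoter share was 51.4% and 46.3% in Ctrl and 39.3% and 40.5% in KO, with a difference of 0.53 ± 0.56. In these 3 genes and in Pkm, so in 4 of the 9, the shares of the genotypes did not overlap, where 29.7% of all 5689 genes did not. For the other 6 genes the difference ranged from -0.03 ± 0.26 (Hk1) to 0.34 ± 0.52 (Gpi1).

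The rest of the pathway was counted in the same test. Of 36 other genes of glucose transport, glycolysis and the fate of pyruvate, 28 had a peak and 0 had an unadjusted p under 0.05, against 2.89% of all genes, with 10 fold changes above 0 and 18 below (6347 and 6580 over all genes), a median of -0.03 and a range of -0.26 (Pdk3) to 0.33 (Slc16a3). The enzymes of the steps that the 9 genes leave out were among them. Triose phosphate isomerase, Tpi1, had a log2 fold change of -0.00 ± 0.22. Gapdh, the dehydrogenase of glyceraldehyde-3-phosphate, had 1364 and 1456 normalized counts in Ctrl against 1544 and 1644 in KO (0.18 ± 0.14), with both KO libraries higher. Phosphoglycerate kinase, Pgk1, had 0.05 ± 0.30 (log2), the mutase Pgam1 -0.02 ± 0.20 and enolase, Eno1, 0.04 ± 0.18. Slc16a3 (MCT4), which exports lactate, had 677 and 695 in Ctrl against 770 and 957 in KO (0.33 ± 0.17), and was named for its place at the end of that range. Among the genes with no assigned peak were Hk3, Ldhb and Pfkfb1.

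Of 19 genes that act with or beside Myc, such as its partner Max, the Mxd repressors and the hypoxia factor Hif1a, 17 had a peak and 0 had an unadjusted p under 0.05, against 2.89% of all genes. Fold changes were above 0 in 8 and below 0 in 9, from -0.22 (Arnt) to 0.21 (Max). Max had 978 and 1103 normalized counts in Ctrl against 1182 and 1220 in KO (0.21 ± 0.15), the opposite sign to Myc. The other Myc family genes Mycn and Mycl had no peak.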

How the data were processed

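The authors mapped paired-end reads of the Pol II CUT&Tag libraries to mm10 with Bowtie2, called peaks with MACS2 against IgG, merged them with bedtools and deposited raw read counts per merged peak for 2 Ctrl and 2 KO libraries; versions are not given in the sources used here. Because peaks were called on the libraries compared, and no background was subtracted here, a weak gene can lack a peak. No column was left without a sample (0).

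Peaks were assigned with GENCODE vM21 by midpoint (gene or 3 kb upstream of it), to all protein-coding genes that fit or else to non-coding ones, and counts were summed by symbol. KO was compared with Ctrl by the two-sided DESeq2 1.42.0 Wald test (the study's tool; R 4.3.3), with Benjamini-Hochberg adjustment over all genes or all peaks and independent filtering at 0.05. Intervals are the estimate with its normal 95% range. Promoter and gene body sums were compared by a region by genotype term with library as block. The fits were tested on simulated data. edgeR 4.0.16, other scalings, a minimum mean of 10 counts, a replicate block, other peak subsets and leaving out each library were alternatives. Depth, 4489646 to 13351007 reads in peaks, sets the counting error.

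Named peaks are the strongest promoter and gene body peak of each gene and those with unadjusted p under 0.05. The Slc2a3 peak beside its inner starts was added. The members and lists were chosen with earlier results of these data known.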

Additional observations from a re-analysis of the deposited data

How the results depend on the processing

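With 2 libraries per genotype, the median SE over all genes was 0.225 (log2). A change has to exceed its SE by a wide margin to be told from 0. Gpi1, at 0.38 ± 0.22, had an unadjusted p of 0.0840 (DESeq2). Over the alternatives tried, none of the 10 genes or 89 peaks with an adjusted p passed 0.05. Of the values compared with their main setting, 406 single values kept their sign and side of the threshold and 43 changed sign, none of them past it. Values without an adjusted p were counted here as not past the threshold. Peaks with an unadjusted p under 0.05 numbered 4 of the 89 by edgeR, against 3.63% of all peaks, and genes 0 of the 10, against 4.88% of all genes. Under the replicate block there were 0 such peaks, and no share over all peaks was counted for that fit. Among the genes that kept an adjusted p there, 116 were called, with 0 of the 5 members that kept one. Independent filtering left 5 of the 10 genes and 61 of the 89 peaks without an adjusted p. Over the series it left 10777 of 12927 genes and 41710 of 56615 peaks without one. The numbers do not pair the samples by the labels, and same-numbered libraries deviated together with r = 0.369 over genes and 0.233 over peaks, across features that are not independent. With promoter peaks alone the log2 fold change was 0.12 for Slc2a1, -0.037 for Hk2, -0.023 for Pkm and 0.0089 for Tpi1. With gene body peaks alone it was 0.083 for Aldoa and -0.24 for Eno1. It was -0.011 for Pkm with unshared peaks alone and 0.0093 for Tpi1 with total-count scaling. Aldoa had no value without shared peaks and Myc none for the gene body. The cause of these changes of sign was not tested.

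Leaving out 1 library at a time gave a log2 fold change of -0.041 to 0.52 for Hk2, -0.16 to 0.020 for Pfkp, -0.059 to 0.0075 for Aldoa, -0.079 to 0.084 for Tpi1, -0.12 to 0.21 for Pgk1 and -0.0053 to 0.083 for Eno1. The difference between gene body and promoter ranged from -0.32 to 0.52 for Slc2a3, -0.23 to 0.13 for Hk1, -0.17 to 0.88 for Gpi1 and -0.084 to 0.36 for Aldoa, while the median of that difference over all genes moved from -0.05 to 0.15. Among single peaks, the strongest gene body peak ranged from -0.33 to 0.32 in Slc2a3, -0.19 to 0.35 in Hk1, -0.21 to 0.95 in Gpi1, -0.36 to 0.10 in Pfkp, -0.13 to 0.30 in Aldoa, -0.29 to 0.12 in Pkm and -0.061 to 1.04 in Ldha. The Ldha 3′ UTR peak ranged from 0.81 to 2.08, and the Gpi1 intron peak from 0.52 to 0.82. The strongest promoter peak ranged from -0.16 to 0.21 in Slc2a3, -0.0023 to 0.17 in Hk1, -0.35 to 0.21 in Hk2, -0.10 to 0.47 in Gpi1, -0.15 to 0.050 in Pkm and -0.048 to 0.061 in Ldha.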
